A study of Mus musculus with 7 samples.

Results

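The open chromatin regions described here lie at the 3' ends of protein-coding genes in mouse muscle stem cells (MuSCs), the resident stem cells of skeletal muscle. ATAC-seq peaks of 4 libraries, in which a transposase cuts open chromatin, were merged on chromosomes 1 to 19. A merged region was kept when it lay within 1 kb of the 3' end of a coding gene (GENCODE M21, mouse build GRCm38) and more than 3 kb from every annotated transcript start. This gave 2401 gene-end regions of 120444 merged regions. Of the 5999 regions within 1 kb of a coding end, 3598 were left out because a start lay within 3 kb. The 2 comparison classes were 75178 other regions more than 3 kb from every start and 42865 regions within 3 kb of a start.

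The study asked what TRF2, a protein of the telomere-protecting shelterin complex encoded by Terf2, does in MuSCs away from telomeres. The 2 Control and 2 TRF2KO ATAC libraries came from uninjured hind-limb MuSCs sorted at 0 h, and the design text calls the 2 libraries of a genotype biological replicates. In the study's mice a floxed Terf2 is deleted after tamoxifen by a Cre recombinase driven from Pax7, so the deletion is limited to cells in which the Pax7 gene is active. Libraries were grouped by their titles, since the labels give wild type as the genotype of all 4. TRF2 was mapped by CUT&Tag, in which an antibody tethers the transposase, in 2 libraries labelled as wild-type MuSCs from tibialis anterior muscle 3 days after notexin, a muscle-damaging toxin, with 1 IgG library as background. The methods text differs, giving a shorter time after injury, gastrocnemius muscle as well and control mice with a Pax7-driven Cre and a tdTomato reporter. TRF2 was thus mapped in injured muscle and ATAC in uninjured muscle.

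The 3' end of a gene is where transcription passes the poly(A) signal, the transcript is cut and RNA polymerase is released. Open chromatin there can belong to enhancers, to sites of the insulator protein CTCF, to the start of an unannotated transcript or to the terminator itself. Peak lists do not separate these.

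MACS listed 87394 and 98558 peaks in Control replicates 1 and 2 and 83039 and 82556 in TRF2KO replicates 1 and 2 on these chromosomes. The background pileup recovered from the lists was 3.35, 4.56, 3.37 and 3.41 fragments in the same order, so Control replicate 2 was the deepest library. Markers of MuSCs had an open start in 10 of 10 cases in every library. Open starts were also found for 1 of 7 immune, 4 to 5 of 6 endothelial, 4 to 5 of 6 fibro-adipogenic, 4 to 5 of 5 smooth muscle and pericyte, 2 to 3 of 3 Schwann and 4 to 6 of 6 myofibre markers. The part of other cells in the results was not tested. The region over the Terf2 start was lower in TRF2KO by limma in the centred fit described later (log2 fold change -1.21 ± 0.12 SE, adjusted p = 4.30e-13).

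Short stretches of 29 bases from the members on which the results turn are shown first, read from GRCm38, 5' to 3'. Capitals mark the motif. The first 2 stretches show the CTCF core (CCA, any 2 bases, AG, any 2 bases, GGC), which a larger share of gene-end regions held than of other regions away from starts. The next 3 show the E-box CAGCTG, the form bound by myogenic factors, in the regions with the smallest p among those lower in TRF2KO that hold it. The last shows the AP-1 motif TGANTCA in a TRF2-bound region.
Dand5 end, chr8:84815723-84815751, minus strand: cgcttttagCCACTAGGTGGCaccgcgtc
Csrp1 end, chr1:135753082-135753110, minus strand: cctgcatggCCAGCAGAGGGCagcctgtc
Wdr48 end, chr9:119927118-119927146, plus strand: aggcagcggtgCAGCTGtcctctcggaga
Ccdc32 end, chr2:119018986-119019014, plus strand: tgggccccagaCAGCTGcttggcgtatgt
Tnfrsf8 end, chr4:145268023-145268051, plus strand: acaagagtatgCAGCTGccagtgggtgag
Btd end, chr14:31669346-31669374, plus strand: aaggctcgggaTGAGTCAagtcttgagga

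Gene-end regions were mostly narrow. Their median width was 490 bp (quartiles 300 and 936), close to 464 bp for other regions away from starts and below 706 bp at starts. Of the 2401, 1024 (42.6%) lay inside the gene, 967 (40.3%) lay past its end and 410 (17.1%) spanned the end. The spanning regions were wider (median 958 bp), which their definition favours, and had the highest median fold percentile (56.8, against 27.0 past the end and 21.6 inside the gene). The fold percentile is the rank of a region's strongest peak by MACS fold enrichment within its own library, averaged over the libraries with a peak. By the base under the summit, 980 regions (40.8%) were outside genes, 809 (33.7%) were in a 3' UTR, 302 (12.6%) in an intron of a coding gene, 233 (9.70%) in a coding exon, 40 in an intron of another gene and 37 in another exon. Ends of coding genes on both strands lay within reach of 162 regions (6.75%), so those could not be assigned to 1 gene.

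Peak summits were denser near gene ends than 5 to 10 kb away, with a dip just before the end. In sequence more than 3 kb from every start, the last 1 kb of genes held 52.6 and 66.0 summits per Mb in Control and 47.5 and 47.0 in TRF2KO. The first 1 kb past the end held 52.3 and 62.8 in Control and 49.6 and 48.6 in TRF2KO. At 5 to 10 kb from the end the density was 39.3 to 50.3 summits per Mb on the gene side. On the far side it was 42.1 and 47.9 in Control and 40.2 in TRF2KO replicate 1, with TRF2KO replicate 2 close to that. In each of the 4 libraries both near zones were therefore denser than both far zones. The higher density was not confined to 1 kb. The bin 2000 to 2500 bp past the end held 56.2 and 62.8 in Control and 50.5 and 55.7 in TRF2KO. The bin 2500 to 2000 bp before the end held 48.8 and 71.2 in Control and 48.2 and 49.7 in TRF2KO. The bin from 500 bp before the end to the end held 45.3, 52.3, 38.8 and 41.9 summits per Mb (Control 1, Control 2, TRF2KO 1, TRF2KO 2), below the 60.3, 80.2, 56.7 and 52.4 of the bin before it. The dip was present in every library of both genotypes.

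**Figure D1:**
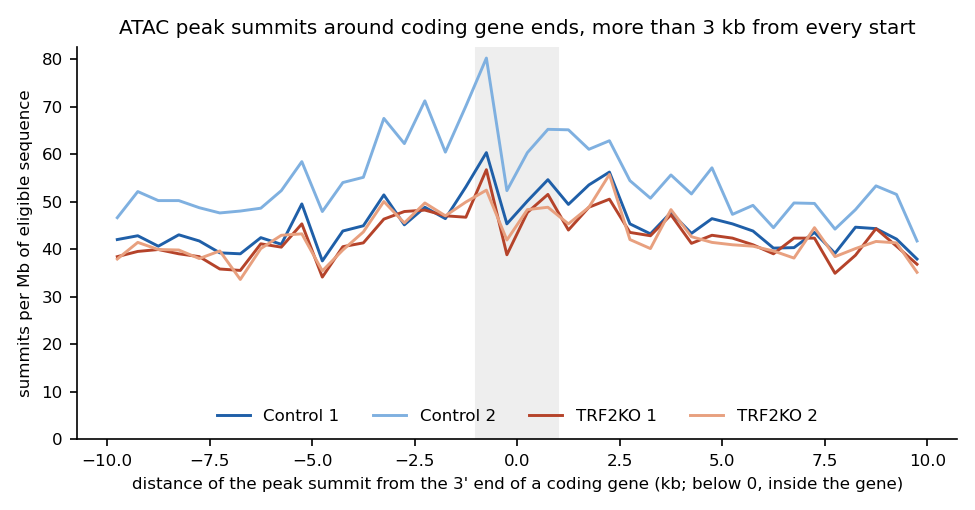
Peak summits per Mb of eligible sequence (y axis) in 500-bp bins of distance from the 3' end of coding genes (x axis, kb), 1 line per ATAC library, with the 1 kb on either side shaded. All 4 lines dip in the bin just before the end, where they lie between 38.8 and 52.3 summits per Mb, and the deepest library, Control replicate 2, lies highest across most of the range.

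More gene-end regions had a peak in Control than in TRF2KO libraries. A peak was present at 1554 and 1887 regions in Control (1720.5 ± 235, SD, n = 2) and at 1426 and 1417 in TRF2KO (1421.5 ± 6.36, SD, n = 2). The groups did not overlap, but the difference of -299 regions was smaller than that between the 2 Control libraries. By exact permutation the two-sided p was 0.33, the smallest that 2 against 2 libraries allow. With the regions SEACR called, the difference reversed to 39.0 more in TRF2KO, and without Control replicate 2 it was -139. As a share of all merged regions with a peak in the library, gene-end regions made up 1.86% and 1.98% in Control and 1.81% and 1.83% in TRF2KO (exact permutation p = 0.33, n = 2 per group).

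Peaks of single libraries were common. A peak was present in all 4 libraries at 1063 gene-end regions (44.3%, exact 95% binomial interval 42.3 to 46.3), against 46.3% of other regions away from starts. Control replicate 2 alone accounted for 424 regions (17.7%), more than Control replicate 1 alone (147), TRF2KO replicate 1 alone (130) and TRF2KO replicate 2 alone (153). Both Control and neither TRF2KO library had a peak at 129 regions (5.37%, interval 4.50 to 6.35), where the background over all merged regions was 4.47% and the share among other regions away from starts 5.20%. Both TRF2KO and neither Control library had a peak at 21 regions (0.875%, interval 0.542 to 1.33), where the background was 1.13% and the share among other regions 1.23%. Both shares were close to the background. A peak missing from a list is one that did not pass the caller's threshold, and intervals cover counting error only.

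**Figure D2:**
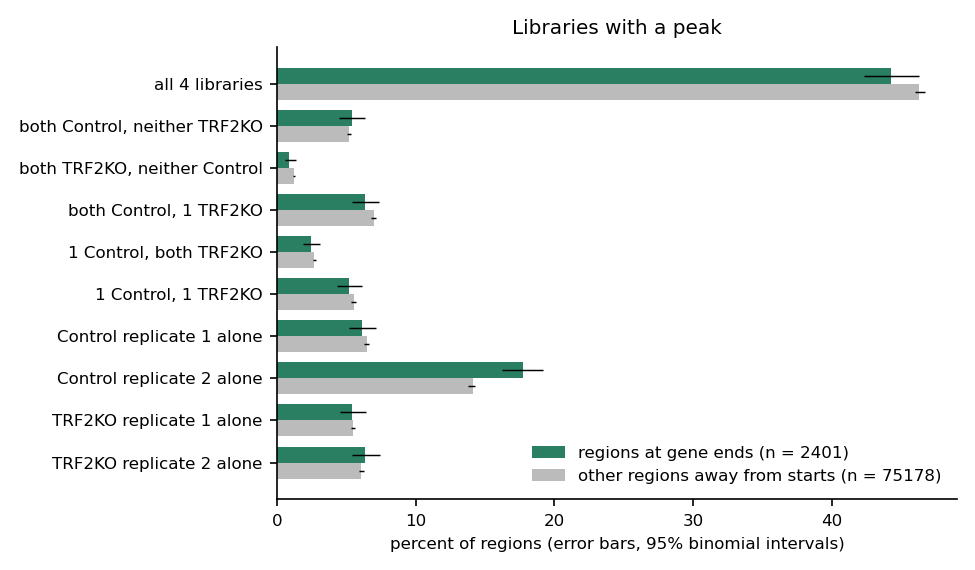
Percent of regions (x axis) with each pattern of peaks across the 4 ATAC libraries (y axis), for 2401 regions at gene ends and 75178 other regions away from starts, with 95% binomial intervals. The widest gap between the classes is in peaks of Control replicate 2 alone (17.7% against 14.1%).

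The regions found in 1 genotype only were weak. The 129 Control-only regions had a median fold of 4.03 and a median fold percentile of 22.5, and the 21 TRF2KO-only regions 3.76 and 14.9. GoPeaks and SEACR, run by the study on the same libraries, found no region in either TRF2KO library at 58 of the 129 and none in either Control library at 10 of the 21. The highest Control-only fold was 816 bp past the end of Fgfr1op, a centrosome gene (chr17:8197438-8197789), at 15.6 and 14.4. Next came the 3' UTR of Poldip3, which takes part in mRNA export (chr15:83126698-83127427), at 8.51 and 7.74. The region past Slk, a kinase gene (chr19:47645661-47645927), had 8.51 and 6.66, the one at the end of C2cd4c 8.28 and 6.48, the one past B3gnt6 5.98 and 8.46 and the one in the 3' UTR of Tmem50b 8.51 and 5.40. At Slk another caller found a region in both TRF2KO libraries, and at the other 5 none did. Apart from the Fgfr1op region, these folds were near the median of all gene-end peaks, which was 8.75 and 6.12 in the Control libraries.

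Among TRF2KO-only regions the highest folds lay past Epha2, an ephrin receptor (chr4:141330064-141330730), at 7.55 and 6.81. The region past Cript had 5.95 and 7.49, the one in the 3' UTR of Gpr132, a G protein-coupled receptor, 7.09 and 4.77, and the one in coding sequence of Nrtn, the ligand neurturin, 6.63 and 3.86. The region past Ociad1 had 5.72 and 4.31, and the one past Hmbox1, which encodes a protein that binds telomeric repeats, 3.20 and 5.45. Another caller found a region in both Control libraries at Cript and in Control replicate 2 at Gpr132, Nrtn and Hmbox1. All of these folds were below those of the Fgfr1op region in Control, and none of the 6 regions held a TRF2 region, although a peak of TRF2 replicate 2 (4.20) overlapped the one at Epha2.

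The height of gene-end regions was compared next with that of other regions away from starts. Among regions with a peak in the library, the median fold percentile at gene ends was 49.3, 46.5, 51.0 and 49.3 (Control 1, Control 2, TRF2KO 1, TRF2KO 2), and at other regions 45.3, 46.5, 44.9 and 44.7. The difference averaged 3.66 percentile points. It was above 0 in 3 of 4 libraries and 0 in Control replicate 2, the deepest one (exact sign-flip permutation test over 4 libraries, two-sided, p = 0.25). A test over 4 libraries cannot go below 0.12, so this design could not pass 0.05.

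The strongest gene-end region lay in the 3' UTR of Lars2, the mitochondrial leucyl-tRNA synthetase (chr9:123461792-123462357). Its folds were 1244 and 1027 in Control and 1323 and 1220 in TRF2KO. TRF2 CUT&Tag folds there were 33.7 and 35.6, and an IgG peak overlapped it. The Lars2 region was in neither of the deposited consensus lists, although both other callers found it in every ATAC library. The reason was not tested. The next regions had no IgG peak. They spanned the ends of Bcat2, a branched-chain amino acid transaminase (180, 146, 181 and 169 in the library order above), of Tmem88b (152, 134, 172 and 168) and of Fgfr4, a receptor of MuSCs (153, 131, 155 and 143). Those at 1700011L22Rik, C87436, Thap3 and Dnajb12 had folds between 102 and 136, and the Dnajb12 region was also in neither consensus list. All 8 had a fold over 100 in every library of both genotypes.

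Fold enrichment was compared between genotypes with limma at the 60354 regions with a peak in all 4 libraries, after centring each library on its median. Of the 1063 gene-end regions tested, 108 (10.2%) were lower in TRF2KO and 98 (9.22%) were higher at a Benjamini-Hochberg adjusted p under 0.05. The background over all regions tested was 7.59% lower and 18.6% higher. Other regions away from starts had 9.59% lower and 10.5% higher, and regions at starts 4.63% and 30.4%. Unadjusted p-values under 0.05 were found at 160 and 162 gene-end regions. The median log2 fold change was 0.04 over gene-end regions and 0.10 over all regions. In bulk libraries, fewer cells with an open region and less opening per cell cannot be told apart.

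The higher calls rested on the scaling and the lower calls much less so. Quantile normalization gave 110 lower and 33 higher gene-end regions, and no centring gave 105 lower and 10 higher. Centring moved the median log2 fold change of all regions from -0.05 to 0.10, and quantile normalization to 0.02. Lower under all 3 scalings were 89 gene-end regions (8.37%, against 5.44% of all regions), and higher under all 3 were 10 (0.941%, against 1.35%). With a variance prior that did not follow the mean, 26 were lower and 8 higher, and with the mean fold of a region's peaks 31 and 19.

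The 5 gene-end regions with the smallest p in each direction had groups that did not overlap, apart from Lars2. The smallest p was at the end of Wdr48, which encodes a cofactor of deubiquitinating enzymes (chr9:119926564-119927526), with folds of 37.7 and 35.3 in Control and 9.38 and 9.31 in TRF2KO (log2 fold change -1.82 ± 0.15 SE, limma adjusted p = 1.56e-15). Near the end of Rpn2, an oligosaccharyltransferase subunit, folds were 27.2 and 23.8 in Control and 10.7 and 7.72 in TRF2KO (-1.33 ± 0.17, limma adjusted p = 7.02e-09). In the 3' UTR of Ccdc32 they were 34.5 and 32.0 against 14.9 and 14.1. The 3' UTR regions of Tnfrsf8, the receptor CD30, and of Slc17a5, the lysosomal sialic acid transporter, had log2 fold changes of -0.77 ± 0.12 and -0.65 ± 0.11. All 5 were lower under the 3 scalings, and the Wdr48, Rpn2 and Ccdc32 regions also without the variance trend. The SE and p of each region draw on a variance shared by regions of like height, besides the spread of its own libraries. Without the variance trend the smallest limma adjusted p of any gene-end region was 0.0224. With the mean fold of a region's peaks it was 0.00678.

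Among the higher regions, folds inside Gm12394, a predicted gene, were 14.5 and 11.3 in Control and 28.6 and 27.2 in TRF2KO (log2 fold change 1.27 ± 0.15 SE, limma adjusted p = 7.61e-10). In the 3' UTR of Pgpep1, a peptidase, they were 27.4 and 21.4 against 44.8 and 39.0. At the end of Mxra7 they were 11.3 and 12.4 against 24.5 and 26.3, and at the end of Mindy4, a deubiquitinase gene, 17.5 and 13.1 against 30.6 and 25. These 4 were higher under all 3 scalings. The Lars2 region (0.32 ± 0.04), where the raw folds of the genotypes overlapped, was higher in the centred fit and not under the other 2 scalings.

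Motifs were counted on either strand in the 201 bases around the summit, and none of the motifs contains another, although AP-1 and E-box matches can share bases, as at Gm49337. The CTCF core was held by 180 of the 1063 gene-end regions with a peak in all 4 libraries (16.9%, interval 14.7 to 19.3) and by 8.48% (8.19 to 8.78) of the other regions with a peak in all 4. Over all merged regions the share was 6.29%. Within single libraries 12.0% to 14.7% of gene-end regions held it, the lowest share being in Control replicate 2, against 7.04% to 7.80% of other regions. Within bins of peak height the share was 22.1% against 11.4% at a fold percentile of 40 to 60 and 18.7% against 10.4% at 60 to 80. These shares were compared by their intervals and not by a test, because regions are not replicates.

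The strongest gene-end regions with a CTCF core were picked by their height over all 4 libraries. In the 3' UTR of Dand5 (chr8:84812620-84817027) folds were 122 and 94.5 in Control and 92.4 and 81.5 in TRF2KO, with a log2 fold change of -0.16 ± 0.08 SE (limma adjusted p = 0.122) and a lower call with quantile normalization. Past the end of Csrp1, a LIM-domain protein gene (chr1:135752439-135753761), they were 88.4 and 73.6 against 94.5 and 91.0 (0.35 ± 0.08 SE, limma adjusted p = 0.000425), without a call under the other 2 scalings. The regions at Olfr750, Lag3 and Bcan were likewise called higher in the centred fit and not under the other 2 scalings, and the one at Prr7 had no call. Among all gene-end regions called lower, 4.63% held the core, against 10.2% of those called higher and 19.3% of those with no call.

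The E-box CAGCTG was frequent where fold was lower in TRF2KO. It was held by 63 of the 108 lower gene-end regions (58.3%, interval 48.5 to 67.7), by 255 of the 857 with no call (29.8%, 26.7 to 32.9) and by 31 of the 98 higher ones (31.6%, 22.6 to 41.8). Of the 89 lower under all 3 scalings, 55 held it (61.8%), and of the 10 higher under all 3, 6 held it. Among other regions away from starts the lower ones also had the highest share, 52.3%. There the share was 31.8% with no call and less, 26.3%, among higher ones. Of the 563 other regions higher under all 3 scalings, 25.6% held it. Over all merged regions the share was 25.8%. The GC box GGGCGG (12.9% of all merged regions) ran the other way, at 1.85% of lower, 12.0% of uncalled and 25.5% of higher gene-end regions in the centred fit, while 0 of the 10 higher under all 3 scalings held one. AP-1 was held by 5.56%, 11% and 21.4% in the same order, and by 2 of those 10. Other regions away from starts had 4.91%, 6.85% and 11.8% for the GC box and 11.1%, 16.4% and 28.7% for AP-1 in that order. The higher gene-end regions were also taller (median fold percentile 82.7, against 65.5 of lower and 60.2 of uncalled ones). The part of height in these shares was not tested. The Wdr48, Ccdc32, Tnfrsf8 and Slc17a5 regions each held an E-box, at 75, 7, 8 and 11 bases from the summit, and the Rpn2 region held none in this window. These shares were not tested either.

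**Figure D3:**
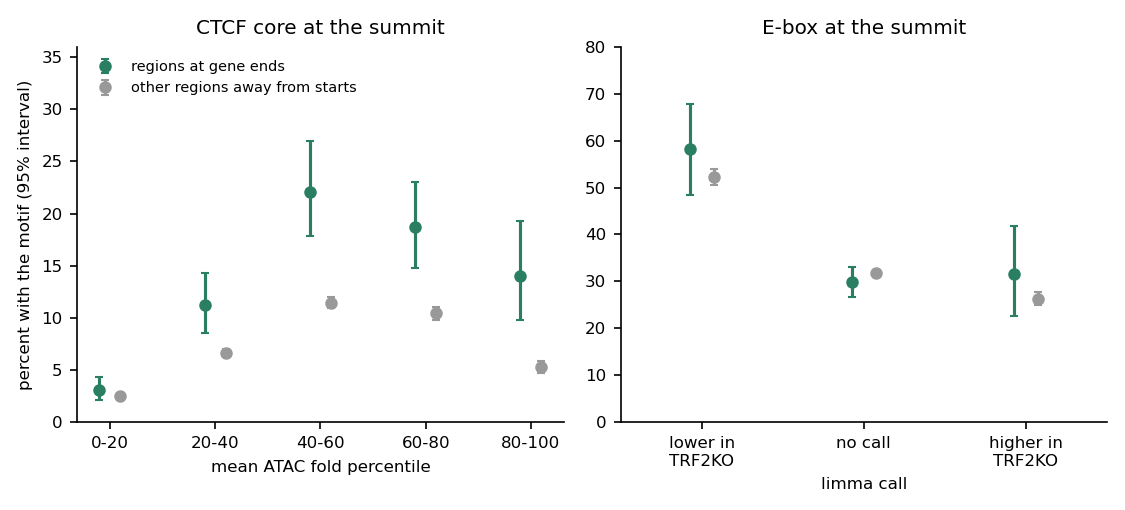
Left, percent of regions with a CTCF core in the 201 bases at the summit (y axis, 95% binomial intervals) by mean ATAC fold percentile (x axis). Right, percent with the E-box CAGCTG by limma call among regions with a peak in all 4 libraries. Gene-end regions (green) lie above other regions away from starts (grey) for the CTCF core at fold percentiles over 20, and in both classes the E-box share is highest among regions lower in TRF2KO (58.3% and 52.3%).

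The AP-1 motif was less frequent at gene ends than at other regions with a peak in all 4 libraries, at 11.4% (interval 9.54 to 13.4) against 17.2% (16.8 to 17.6), with 11.9% over all merged regions. TEAD (GGAATG) and RUNX (TGTGGT) motifs were found at 13.1% and 17.0% of all gene-end regions and at 14.1% and 16.5% of other regions. The poly(A) signal AATAAA was most frequent in spanning regions. On the strand of the gene it lay in the window of 56 of 410 (13.7%), against 18 (4.39%) on the opposite strand, while regions past the end (3.83% and 4.03%) and inside the gene (3.42% and 4.10%) showed no such lead. Median GC content was 54.2% at gene ends, 51.2% at other regions and 56.2% at starts.

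TRF2 was found at few gene-end regions. A TRF2 region, with a peak in both CUT&Tag libraries, overlapped 50 of 2401 (2.08%, interval 1.55 to 2.74), where the background over all merged regions was 5.52%. The share was 2.03% among other regions away from starts and 11.8% at starts. In TRF2 replicate 1 a peak overlapped 4.41% of gene-end regions and 3.81% of other regions, and in replicate 2 4.71% and 4.79%. The difference averaged 0.259 percentage points and went in opposite directions in the 2 libraries (exact sign-flip permutation test, two-sided, p = 1.00, where 0.5 is the smallest possible). IgG peaks overlapped 4 gene-end regions (0.167%), and 47 of the 50 held a TRF2 region without an IgG peak.

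TRF2 overlap rose with the height of the ATAC peak. It was 1 of 993 gene-end regions at a mean fold percentile up to 20 (0.101%), then 1.24%, 1.47% and 3.85% in bins of 20, and 24 of 221 above 80 (10.9%, interval 7.08 to 15.7). Other regions away from starts ran from 0.489% to 12.5% in the same order. Of the 50 TRF2-bound gene-end regions, 48 had an ATAC peak in all 4 libraries. Spanning regions had the highest share (3.66%), followed by regions inside the gene (2.05%) and past its end (1.45%).

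**Figure D4:**
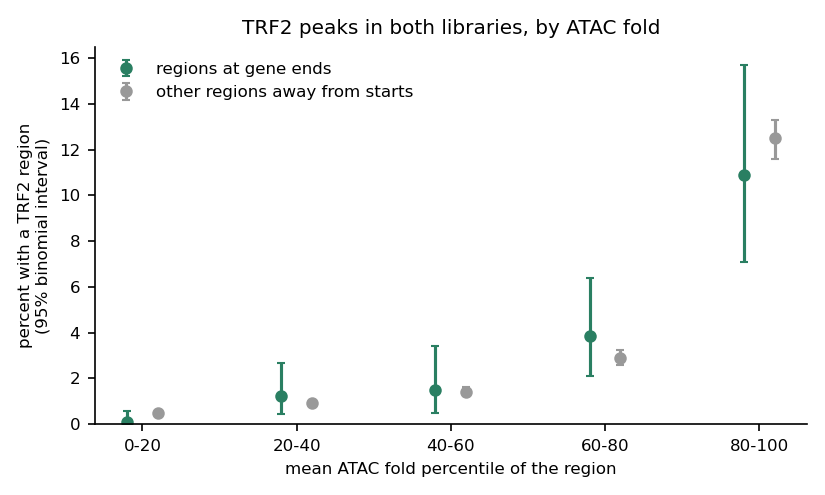
Percent of regions overlapping a TRF2 region (y axis, 95% binomial intervals) by mean ATAC fold percentile in bins of 20 (x axis), for regions at gene ends and other regions away from starts. The classes rise to 10.9% and 12.5% in the highest bin, and their intervals overlap in every bin.

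TRF2 folds were read at 7 of the bound regions without an IgG peak. Those at the end of Fam168a (8.56 and 9.94), Btd, the biotin-recycling enzyme (9.50 and 5.66), Mrgprf (6.20 and 8.59), 1700011L22Rik (7.37 and 7.38), Il2rb, an interleukin 2 receptor chain (7.14 and 7.52), Gm49337 (6.49 and 7.94) and Sema4a, a semaphorin (6.42 and 7.83), were between 5.66 and 9.94. AP-1 motifs lay at the summit of 19 of the 50 (38%, interval 24.7 to 52.8), as at 40.5% of other TRF2-bound regions, against 8.11% of gene-end regions with no peak in either TRF2 library. The Fam168a, Btd, Mrgprf and Gm49337 regions each had one.

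Lower calls were about as frequent at TRF2-bound gene ends as at unbound ones. Of the 48 tested with limma, 5 (10.4%) were lower and 15 (31.2%) higher, with a median log2 fold change of 0.16. Of the 913 with no peak in either TRF2 library, 7.12% were higher and 10.2% lower, with a median of 0.02. Quantile normalization left 5 of the 48 higher and 6 lower, and no centring 2 and 5. The lead of higher over lower calls among bound regions thus rested on the centring. The share of higher calls stayed above that of unbound regions, on few calls. It was 10.4% against 2.63% with quantile normalization and 4.17% against 0.767% with no centring. The TRF2-bound regions were taller (median fold percentile 80.4 against 60.7), and the part of height in these shares was not tested. At Il2rb the folds were 31.8 and 31.5 in Control and 20.4 and 21.8 in TRF2KO (-0.44 ± 0.13 SE, limma adjusted p = 0.00723), lower under all 3 scalings. At Tnfrsf8, also bound by TRF2 (4.03 and 9.20), the drop was the one given above.

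Of the 20807 coding genes on these chromosomes, 14948 had an end with sequence within 1 kb that was more than 3 kb from every start, and 2222 of them (14.9%) had a gene-end region. Genes with a start open in all 4 libraries had one in 18% of cases, and genes with no open start in 6.28%. Among genes with a start open in all 4, the share was 15.2% where TRF2 bound that start and 19.8% where it did not. One gene-end region was found at 1859 genes, 2 at 331, 3 at 31 and 4 at 1, Vps18, which encodes a protein of lysosomal fusion. The 4 regions at Vps18 were weak, and the only one with a peak in all libraries, across the end, had folds of 8.51 and 8.64 in Control and 5.72 and 4.09 in TRF2KO. Of the 3 regions at 1810062G17Rik, the one inside the gene fell from 21.2 and 18 to 9.38 and 9.99 (log2 fold change -0.87 ± 0.18 SE, limma adjusted p = 0.000114), and the one across the end had 37.7 and 31.1 in both genotypes.

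The listed genes were then read by their roles. Of 27 eligible genes of MuSC identity, 12 (44.4%) had a gene-end region, and of 15 genes of the Notch pathway, which keeps MuSCs quiescent, 9 had one. The counts were 6 of 15 for AP-1 and immediate early genes, 3 of 18 for myogenic differentiation (16.7%), 5 of 23 for niche matrix (21.7%) and 1 of 5 for shelterin, beside 14.9% of all eligible genes. A peak in any 1 library was enough for these counts. With a peak required in all 4 libraries, 10 of 27 MuSC identity genes had a region. The Notch list and the AP-1 and immediate early list each had 4 of 15 (26.7%), and shelterin kept 1 of 5. Myogenic differentiation had 1 of 18 (5.56%) and niche matrix 1 of 23 (4.35%), both below the 7.28% of all eligible genes. No test of these shares was made. Among the 12 MuSC identity regions with a peak in all 4 libraries, limma called 2 higher, at Fgfr4 and Chrdl2, and 0 lower in the centred fit (2 and 1 at an unadjusted p under 0.05), and neither higher call held under the other 2 scalings. Their median log2 fold change was 0.07, beside 0.10 over all regions tested. The 5 Notch pathway regions gave 1 higher and 1 lower call, the 5 of AP-1 and immediate early genes 1 and 0, the myogenic one 0 and 1 and the shelterin and niche matrix ones 0 and 0, counts that were the same at an unadjusted p under 0.05.

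Pax7, the transcription factor that defines MuSCs, had 2 gene-end regions. The one across its end (chr4:139736345-139737876) had its summit 671 bp before the end and folds of 4.14 and 4.14 in Control and 3.66 and 4.99 in TRF2KO. The one past the end (chr4:139733316-139736170) had 5.98 and 7.20 in Control and 5.26 and 3.86 in TRF2KO (log2 fold change -0.40 ± 0.24 SE, limma adjusted p = 0.241). The Control folds were above the TRF2KO folds at the second region and between them at the first, and neither region was called. Neither overlapped a peak of the TRF2 or IgG libraries. The study reports TRF2 at an annotated enhancer downstream of where Pax7 transcription ends. The position of that enhancer was not compared with these regions.

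Receptors and adhesion genes of MuSCs had some of the taller regions. At Fgfr4, a receptor for fibroblast growth factors, the region across the end had the folds given above and a TRF2 region (4.62 and 4.32). Chrdl2, a BMP antagonist, had a region inside the gene with 63.3 and 57.0 in Control and 72.0 and 75.1 in TRF2KO (0.44 ± 0.09 SE, limma adjusted p = 7.10e-05), and one past its end with 15 and 14.9 against 11 and 9.31 (-0.42 ± 0.19, limma adjusted p = 0.0878). The first was not called under the other 2 scalings and the second under none. Folds at Itgb1, the beta 1 integrin, were 34.1, 27.9, 32.2 and 26.1, and at Sdc4, the proteoglycan syndecan 4, 28.8, 30.2, 24.2 and 26.1. At Cd34, a surface marker of quiescent MuSCs, they were 9.67, 7.38, 9.61 and 7.94. Cdh15, the M-cadherin of MuSCs, had a weak region with MACS peaks only in TRF2KO, at 2.97 and 3.18, which another caller found in all 4 libraries.

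**Figure D5:**
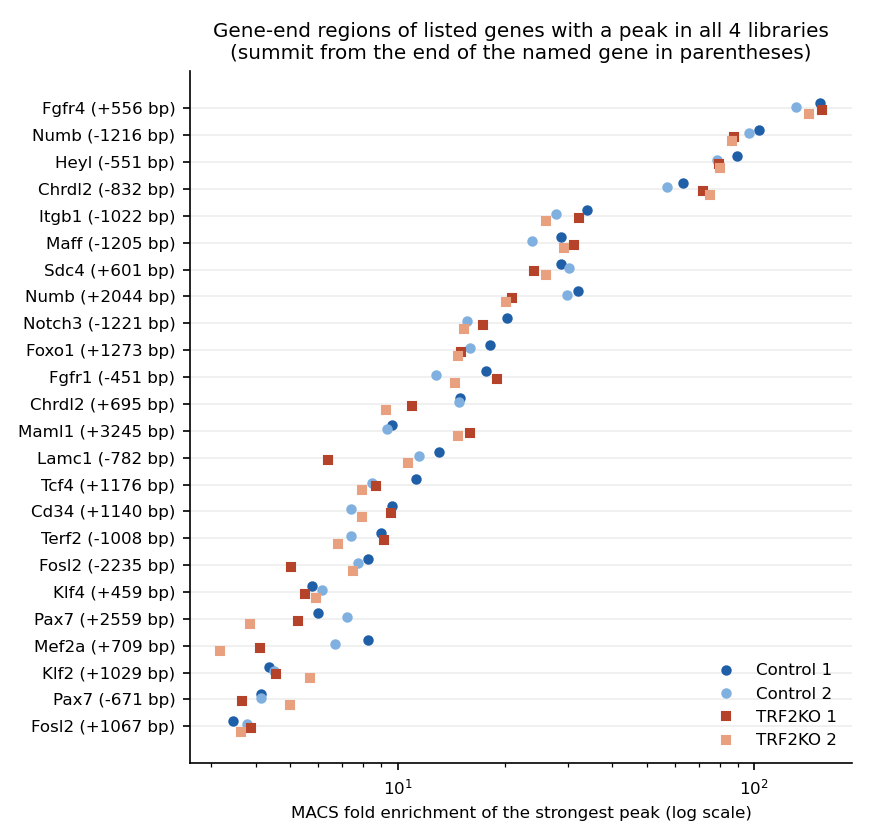
MACS fold enrichment (x axis, log scale) of the gene-end regions of listed genes with a peak in all 4 libraries (y axis, with the distance of the summit from the end of the named gene), 1 point per library. Folds run from 3.18 at Mef2a to 155 at Fgfr4, with both Control points above both TRF2KO points at Numb (both regions), Sdc4, Foxo1, Chrdl2 (+695 bp), Lamc1, Fosl2 (-2235 bp), Pax7 (+2559 bp) and Mef2a and the reverse at Chrdl2 (-832 bp), Maff, Maml1 and Klf2.

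In the Notch pathway, Heyl, a Notch target gene, had a region across its end at 89.5, 78.5, 79.6 and 80.3, and Notch3, a receptor, one in coding sequence at 20.3, 15.7, 17.4 and 15.4. The genotypes overlapped at Heyl and Notch3. Numb, an inhibitor of Notch signalling, had a tall region inside the gene (103, 97.0, 87.8 and 86.7, no call in the centred fit and lower with quantile normalization). A second region 2044 bp past the Numb end, which lies nearer to the end of Papln, had 32.0 and 29.9 in Control and 21.0 and 20.2 in TRF2KO and held a TRF2 region (-0.44 ± 0.13 SE, limma adjusted p = 0.00733). Maml1, a coactivator of Notch, went the other way with 9.67 and 9.36 in Control and 16.0 and 14.8 in TRF2KO (0.84 ± 0.19 SE, limma adjusted p = 0.000383), at a summit 3245 bp past its end in an intron of another gene. Both the Numb and the Maml1 call held under all 3 scalings. The ligand genes Dll4 and Jag1 had regions that were absent from at least 1 library of each genotype, the one past Hey1, another target, had MACS peaks only in Control (4.37 and 4.14) although another caller found it in both TRF2KO libraries, and the one past Lfng, a modifier of Notch receptors, had 4.60, 4.68 and 3.89 and no peak in TRF2KO replicate 2.

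The other lists gave few calls. Mef2a, a transcription factor of muscle differentiation, had a region 709 bp past its end with 8.28 and 6.66 in Control and 4.12 and 3.18 in TRF2KO (-0.89 ± 0.24 SE, limma adjusted p = 0.00365), lower under all 3 scalings. Maff, a small MAF protein, had 28.8, 23.9, 31.3 and 29.3 in its 3' UTR (0.35 ± 0.12 SE, limma adjusted p = 0.0238), higher only in the centred fit among the 3 scalings. The regions past Klf4 and Klf2 and 2 of the 3 at Fosl2 had peaks in every library with folds between 3.45 and 8.28, and no call. Lamc1, the laminin gamma 1 chain, had 13.1 and 11.5 in Control against 6.40 and 10.7 in TRF2KO (-0.43 ± 0.21 SE, limma adjusted p = 0.138). The Terf2 region in its 3' UTR (chr8:107069655-107070851) had 8.98 and 7.38 in Control and 9.15 and 6.81 in TRF2KO (0.10 ± 0.22 SE, limma adjusted p = 0.784), without the drop seen at the start of the same gene.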

How the data were processed

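ATAC-seq (2 Control, 2 TRF2KO) and CUT&Tag (2 TRF2, 1 IgG) libraries of MuSCs were used as peak lists. Reads were aligned by the authors to mm10 with Bowtie2 (2.5.4 for ATAC and 2.4.4 for CUT&Tag in the submitters' processing notes), and regions were called per library with MACS3, SEACR and GoPeaks. Removal of duplicates and of reads without a unique place is stated for CUT&Tag. Whether ATAC fragments were offset for transposase insertion is not given in the sources used here, and summits may be off by a few bases. The deposited MACS lists carry a fold enrichment (a ratio to background) and a -log10 p and q per peak. Where the background could be recovered, it hardly varied between the regions of a library, so no correction for local signal was seen. The deposited consensus lists, from 3 callers, were used for positions only.

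Regions overlapped from 1 bp, and a region took the fold of its strongest peak. Log2 folds, centred on library medians, were compared with limma 3.58.1 (variance trend, Benjamini-Hochberg over 60354 regions), tested on simulated data. Values per library were compared by exact permutation and shares carry Clopper-Pearson 95% intervals. Sequences came from the RefSeq copy of GRCm38. Named were the highest folds per presence pattern and TRF2 overlap, the listed genes, genes with the most regions and the 5 smallest limma p-values in each direction. The TRF2-bound region with the highest TRF2 fold among those free of IgG peaks is not reported here. The Dand5 and Csrp1 regions were chosen after their values were seen. Members and lists were chosen with earlier results of these data known.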

Additional observations from a re-analysis of the deposited data

How the results depend on the processing

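Of 118 recomputed values, 65 kept their direction and size, 50 moved and 3 reversed. The cause of the moves was not tested, apart from those that follow from fewer libraries or peaks. The deficit of peaks in TRF2KO libraries (-299 regions) kept its direction under all alternatives but SEACR regions, which gave 39.0. It ran from -540 with a window of 2 kb to -138 with GoPeaks, and from -472 to -139 when 1 library was left out, the extremes being without Control replicate 1 and without Control replicate 2. The difference in TRF2 overlap (0.259 points) turned to -0.241 with a window of 2 kb and to -0.282 against regions over no gene.

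The share with a peak in all 4 libraries (44.3%) was 50.2% with a window of 500 bp, 41.2% with 2 kb, 41.7% more than 1 kb from starts, 41.4% at ends of any coding transcript, 63.0% with a -log10 q of at least 5, 70.2% with GoPeaks, 40.7% with SEACR and 62.5% in both consensus lists. Leaving out a library gave 48.6% to 53.9%, with fewer libraries to agree. The share past the end (40.3%) was 34.7% with 500 bp, 44.3% with 2 kb, 37.8% more than 1 kb from starts and 11.6% with SEACR. The Control-only share (5.37%) was 7.14% with the stricter q, 7.01% with GoPeaks, 1.11% with SEACR and 12.8% in the consensus lists, and 8.54% to 24.7% without 1 library, the highest without Control replicate 1. The TRF2KO-only share (0.875%) was 2.53% with SEACR and 3.79% in the consensus lists, and 1.81% to 7.77% without 1 library, the highest without TRF2KO replicate 1. TRF2 overlap (2.08%) was 3.15% with the stricter ATAC q, 3.97% with GoPeaks, 7.44% with SEACR, 7% with a peak of either TRF2 library, 0.750% with the stricter TRF2 q, and 4.41% or 4.71% with TRF2 replicate 1 or 2 alone.

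Higher calls by limma (98) fell to 33 with quantile normalization, 10 without centring, 45 at regions at or above the median fold, 19 with the mean fold, 51 with summit pileup and 8 without the variance trend, an alternative chosen after seeing the data. Lower calls (108) were 31 with the mean fold, 71 with summit pileup and 26 without the trend. Leaving out 1 library gave 60 to 92 higher calls, the fewest without Control replicate 2, and 64 to 86 lower calls, the fewest without Control replicate 1. The fit that leaves 1 Control or 1 TRF2KO library assumes that it varies like the other group. With the replicate block limma gave 98 higher and 112 lower calls. After centring, the deviations of like-numbered libraries from their group means correlated at 0.0126 over all regions tested and at 0.0572 over gene-end regions. Whether like-numbered libraries shared a batch cannot be read from this and was not tested.

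Peak lists limit what can be read at low height. A region under the caller's threshold has no value, and gene-end summits held a median of 28 to 32 fragments, so a presence pattern of a weak peak rests on few fragments. With 2 libraries per genotype the smallest exact p of a single value is 0.33. Motif shares had no replicate test.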
